A study of Bos taurus with 24 samples.

Results

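The 150 genes described here were those whose level in bovine testis followed most closely, within each diet, the share of a library's reads that fell outside annotated exons. They were chosen by a rank correlation from 11365 Ensembl gene IDs that could be ranked, out of 24525 gene features counted in 24 testis libraries. The level of a gene was its CPM, the usual scaling of a count to the library's total on genes, the share outside exons was the percent of all counted rows of a library that touched no exon bin, and both were ranked within the 8 bulls of a diet before the 24 ranks were pooled. An ID could be ranked where it was not joined with an overlapping gene, had 2 to 49 exon bins (the pieces into which the exons of a gene are split for counting), had a mean count of at least 50 and was not among the 100 highest. Because the rule used the levels themselves, the rise of these genes with the share is given as a description, with no test. Differences between diets were not used by the rule and were tested. The share itself had a mean of 12.3% on the high, 14.5% on the medium and 13.3% on the low diet. A difference of the members between diets can therefore not be told apart from that of the share.

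The study compared testes of Holstein bulls (n = 24) fed a high diet (HD, 20.0% crude protein and 67.9% total digestible nutrients), a medium diet (MD, 17.0% and 66.0%) or a low diet (LD, 12.2% and 62.9%), with 8 bulls on each. The diets were given from 2 to 32 wk of age, and the testes were collected at 72 wk. The medium diet was the control. Each library was made from messenger RNA of the parenchyma of 1 bull, so the libraries of a diet are biological replicates. Bulls are named by diet and by their number in the labels.

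Reads outside exons come from introns of transcripts that are not yet spliced or that keep an intron, from transcribed sequence that the annotation does not hold, and from genomic DNA carried into a library. The testis is known for transcribing an unusually wide part of the genome, above all in meiotic and post-meiotic germ cells, and for storing many messenger RNAs before they are translated. Testis parenchyma mixes germ cells with Sertoli, Leydig, peritubular and blood vessel cells. In such bulk tissue, fewer cells of a type and less RNA per cell cannot be told apart.

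No table used here pairs these Ensembl IDs with gene symbols, so the members cannot be described by what they encode, and the lists of chromatin, splicing and cell type marker genes drawn up for this tissue could not be applied. The label of the tissue could therefore not be checked against its markers. The members are named by their rank in the correlation, and 4 of them also by ID. No sequence of a member is shown, because none could be looked up by ID.

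The correlation of the ranks was 0.984 for the first member, ENSBTAG00000012423, and 0.976 for the second, ENSBTAG00000016977. It was 0.913 for the last. At this value 46 IDs were tied, of which 13 were taken in the order of their IDs and 33 were not, while 137 members lay above it. The median over all IDs that could be ranked was 0.222, and 61.2% of them had a value above 0. The members ranked 148, 149 and 150, just inside the limit, had mean levels of 133, 95.3 and 146 CPM, and the next 3 IDs, just outside, had 13.7, 10.9 and 59.3 CPM. All 6 had the same correlation, and the order of their IDs alone set them apart.

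The share of reads outside exons ran from 9.54% in HD bull 8 to 21.4% in MD bull 6, a 2.25-fold range. The summed level of the 150 members was lowest and highest in the same pair of bulls, at 2775 CPM in HD bull 8 and 17564 CPM in MD bull 6. In the HD bulls the summed level had a lowest value of 2775, a median of 7120 and a highest value of 12271 CPM. In the MD bulls these values were 6561, 11143 and 17564 CPM, and in the LD bulls 5881, 9310 and 14187 CPM. The 3 diets overlapped, with 3 HD bulls (8, 13 and 7) below every MD and LD bull. The members together held 0.278% to 1.76% of the counts on genes.

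**Figure D1:**
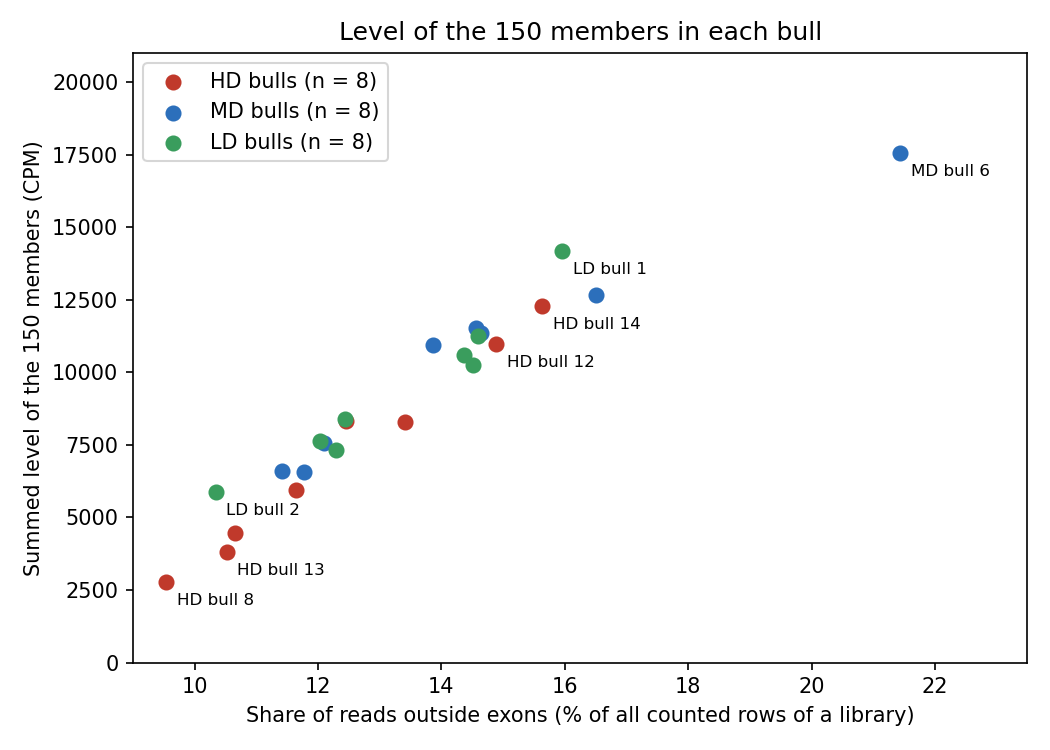
Summed level of the 150 members in CPM (vertical axis) against the share of reads outside exons in percent (horizontal axis), 1 point per bull, coloured by diet with 8 bulls each. The points rise from HD bull 8 at 2775 CPM to MD bull 6 at 17564 CPM, which stands apart on the horizontal axis at 21.4%; the relation was used to choose the genes.

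The first member, ENSBTAG00000012423, had 4.93 CPM in the lowest, 16.3 in the median and 29.5 in the highest HD bull. Its values were 12.3, 25 and 50.3 CPM in the MD bulls and 9.31, 23.7 and 34.2 CPM in the LD bulls. HD bull 8 was the lowest and MD bull 6 the highest of all 24 bulls, 10.2-fold apart. The second member, ENSBTAG00000016977, had a smaller range. It had 48.4, 77.1 and 135.6 CPM in the lowest, median and highest HD bull, 60.8, 97.3 and 128.3 CPM in the MD bulls, and 63.3, 85.7 and 127.9 CPM in the LD bulls. Its highest bull was HD bull 14, not MD bull 6, and the ranges of the 3 diets overlapped for both genes.

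Across the members, the slope of log2(CPM + 1) on the share, with diet as a factor, had a median of 0.20 per percentage point and ran from 0.09 to 0.41. On the linear scale this median is a 1.15-fold rise in CPM + 1 for each point. The steepest was the member ranked 133, with 0.73 CPM in its lowest bull (HD bull 13) and 36.1 CPM in its highest (MD bull 6), a 49.4-fold range. The shallowest was the member ranked 144, which ran from 23.8 to 58.4 CPM. The most abundant, ranked 74, ran from 83.3 CPM in HD bull 8 to 1234 CPM in MD bull 6. A high correlation was not the same as a steep rise, since only 40 of the 150 members were among the 150 steepest IDs, and 118 among the 1000 steepest. The values moved with how the libraries were scaled. With TMM factors, which set the bulk of the genes level between libraries, the median slope of the members was 0.17, with all 150 above 0 on either scale, while that of the IDs that could be ranked went from 0.03 to -0.001.

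The rise was seen in each diet taken alone, in all 150 members, as the choice within diets made likely. The median slope was 0.32 per point in the HD bulls, 0.15 in the MD bulls and 0.21 in the LD bulls. Single bulls moved these values. Without HD bull 14 the HD median was 0.35, and without MD bull 6 the MD median was 0.20. Measured from a single line through all 24 bulls, MD bull 6 lay low, with a median residual of -0.59 on the log2 scale and 146 of 150 members below the line. HD bull 8 (-0.67) and HD bull 13 (-0.54) lay below it at the other end, and every LD bull lay above it.

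To look at the relation in bulls that had no part in the choice, 150 IDs were chosen anew from the bulls of 2 diets and described in the third, a step added after the data had been seen. Those chosen from the MD and LD bulls had a median correlation of 0.833 with the share in the HD bulls and all 150 were above 0, against a median of 0.214 and 59.4% above 0 for the IDs that could be ranked. Those chosen from HD and LD bulls had a median of 0.881 in the MD bulls, with 150 above 0, and those chosen from HD and MD bulls had 0.857 in the LD bulls, with 148 above 0. The background medians were 0.310 and 0.190. The names on the list were less stable than the relation, since 65, 97 and 85 of these IDs were among the 150 members.

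**Figure D2:**
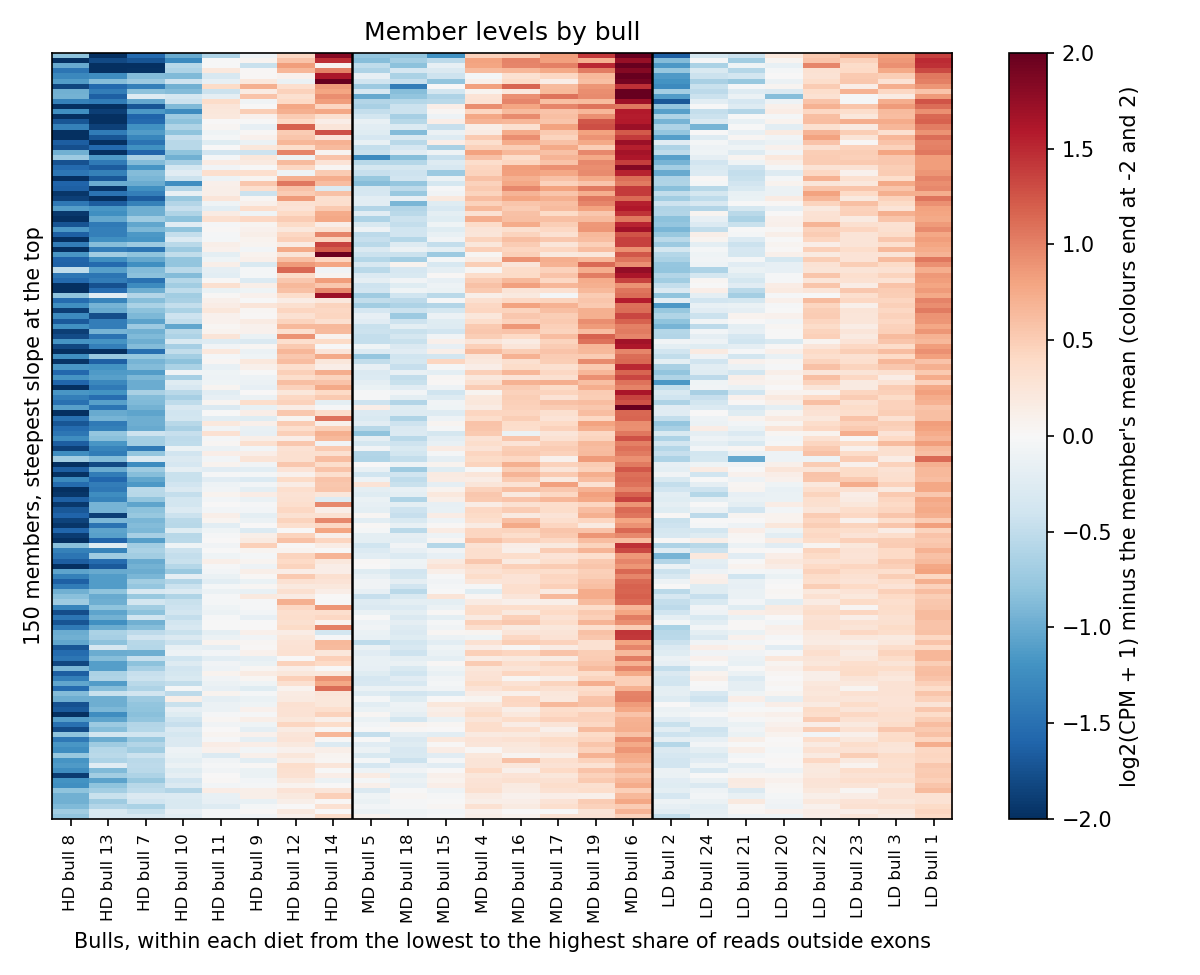
Level of each of the 150 members (rows, steepest slope at the top) in each bull (columns, ordered within a diet by the share of reads outside exons), as log2(CPM + 1) minus the mean of the member over 24 bulls. Colours turn from blue to red from left to right in each diet; HD bulls 8, 13 and 7 show the lowest levels, and MD bull 6 is the highest in 130 members.

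The same few bulls set the extremes. MD bull 6 was the highest of all 24 bulls for 130 members and HD bull 14 for 13. HD bull 8 was the lowest for 113 and HD bull 13 for 32. Within the HD bulls the highest place was divided between bull 14, with 77 members, and bull 12, with 71. In HD bull 14 a member stood at a median of 1.85 times the median of the other HD bulls, with a range from 1.01 to 7.92 times. Within the LD bulls, bull 1 was the highest for 139 members and bull 2 the lowest for 114.

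Members could not be rare transcripts, because the rule asked for a mean count of at least 50. Their mean level ran from 4.08 to 469 CPM with a median of 33.2 CPM, close to the 29.1 CPM of all IDs that could be ranked. None had a count of 0 in any bull, which held for 11361 of the 11365 IDs that could be ranked. The lowest count of a member in any bull was 5. Members had more exon bins, with a median of 13 against 10. Their levels differed more over the 24 bulls, as the rule favours: the SD of log2(CPM + 1) had a median of 0.66 against 0.38, and the highest of all bulls exceeded the lowest by a median of 7.83-fold against 3.42-fold. Within a diet the highest bull exceeded the lowest by a median of 4.95-fold for the HD, 3.08-fold for the MD and 2.42-fold for the LD bulls. The 150 IDs at the opposite end of the correlation, from -0.960 to -0.865, were more abundant, with a median of 128 CPM, and had a median of 9 bins. Their summed level fell from 43065 CPM in HD bull 8 to 16043 CPM in MD bull 6.

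The rise was seen in nearly every exon bin of a member with a mean count of at least 10, as a choice on the sum of the bins favours. Of the 2165 exon bins of the members, 1455 bins in 146 members had a mean count of at least 10. The within-diet rank correlation of the bin with the share was above 0 in 1454 of them (99.9%) and above 0.5 in 1423 (97.8%), against 62.5% and 27.0% of the bins of all IDs that could be ranked. The bins were not independent of the choice, which used their sum. The exception was bin 14 of 16 of the member ranked 80, at -0.135 with a mean count of 27.6, and it was singled out after its value had been seen. A ratio of counts was taken between equal groups of bins at the ends of a gene, with the end whose outermost bin had fewer counts on top. It had a median slope of -0.006 log2 units per point in the 134 members with 6 or more bins. For all IDs that could be ranked this slope was 2.17e-05.

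The members moved with each other, as genes chosen for following the same share must. Within diets, the correlation of log2(CPM + 1) between 2 members had a median of 0.89 over the 11175 pairs. After the share outside exons was taken out of each member by its line, the median was 0.59, and it ran from 0.04 at the 5th to 0.85 at the 95th percentile. The 150 IDs at the opposite end, chosen in the same way, had medians of 0.84 and 0.51, and all IDs that could be ranked had 0.06 and 0.04. These correlations are over 24 libraries that share depth and scaling, and a curved relation leaves part of the share in the residuals.

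Some other measures of the libraries ran with the members, and with the share outside exons that chose them. Within diets, the ranks of the summed level correlated at 0.960 with the share outside exons, at -0.873 with the share of ambiguous reads (those touching more than 1 gene), at -0.484 with the share of alignments of low quality, at -0.405 with the total count on genes, and at 0.770 with the TMM factor, over 24 bulls. With the share outside exons itself these measures correlated at -0.857, -0.524, -0.452 and 0.778. The ratio between gene ends did not run with either (-0.040). The total ran from 9163675 to 21902110 counts. Alignments of low quality made up a mean of 11.5% ± 5.18 (SD, n = 8) of the rows for the HD bulls, 7.80% ± 1.33 for the MD bulls and 8.24% ± 1.82 for the LD bulls. HD bull 12 (21%) and HD bull 8 (17.9%) had the highest shares, and these 2 bulls lay near opposite ends of the members' levels within HD. The share outside exons was 12.3% ± 2.17 for the HD bulls, 14.5% ± 3.28 for the MD bulls and 13.3% ± 1.83 for the LD bulls. Of 15 two-sided exact permutation tests of 5 such measures between diets, those of low quality (p = 0.0497) and ambiguous reads (p = 0.0418) between HD and MD had the smallest p, at 0.373 after adjustment for the 15 tests. The exact p for the share outside exons between HD and MD was 0.134. The part of these measures in the results below was not tested beyond the fits with a covariate.

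Whether the diets differed in the level of the members was tested with edgeR's quasi-likelihood test over all 15005 features that passed the filter on low counts, which all 150 members passed. In HD against MD bulls, 12 members were lower in HD and none was higher at a Benjamini-Hochberg adjusted p under 0.1; none was higher at an unadjusted p under 0.05 or by DESeq2 either. The 12 are 8.0% of the members, where 5.42% of all features tested were lower, 8.68% were higher and 14.1% differed in either direction. Of all features, 15.9% were higher at an unadjusted p under 0.05. DESeq2 with the beta prior called 1799 of 14767 features higher. At an unadjusted p under 0.05, 49 members (32.7%) were lower in HD against 13% of all features. With a bull left out this count ran from 16 members without MD bull 6, where 8.32% of all features were lower, to 113 without HD bull 14, where 16.8% were. With library size only as the scale it was 96 members (64%), against 28.0% of all features. The log2 fold change of the members, HD over MD, had a median of -0.45 and ran from -1.06 to 0.33, with a median SE of 0.25, whereas the median over all features was 0.003. It was below 0 in 145 of the 150, while 49.7% of all features were below 0. Members move together, so the 145 are not separate observations of the diet. The members were also chosen for following the share outside exons. Its mean was lower in HD (12.3%) than in MD bulls (14.5%), so the difference of the members cannot be told apart from that of the share. The 5 members above 0 were all among those for which HD bull 14 was the highest of the 24 bulls.

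The 12 members called had log2 fold changes from -0.98 to -0.37 and adjusted p from 0.0702 to 0.0968. The smallest p belonged to ENSBTAG00000019730, ranked 93. It had 8.05 CPM in the lowest, 19.1 in the median and 26.4 in the highest HD bull, against 20.0, 30.0 and 99.1 CPM in the MD bulls and 18.7, 25.3 and 35.3 CPM in the LD bulls. The high MD value was that of bull 6, and the next MD bull had 34.9 CPM. Its log2 fold change was -0.84 ± 0.25 (SE, edgeR adjusted p = 0.0702), and over 35 alternative fits the adjusted p ran from 0.0277 to 0.303 and the log2 fold change from -1.08 to -0.38. It was called in 23 of the 35. Without MD bull 6 the log2 fold change was -0.53.

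ENSBTAG00000002625, ranked 102, was the next. It had 5.49, 15.3 and 24.1 CPM in the lowest, median and highest HD bull, 12.3, 28.5 and 50.4 CPM in the MD bulls, and 16, 19.5 and 33.5 CPM in the LD bulls. Its log2 fold change was -0.75 ± 0.23 (SE, edgeR adjusted p = 0.0702), with adjusted p from 0.0297 to 0.303 and a log2 fold change from -0.97 to -0.39 over the 35 alternatives, 22 of which called it. For both genes the HD and MD bulls overlapped, and in none of the 12 called members did the 8 HD bulls lie wholly below the 8 MD bulls. This was not counted over the other features, so it cannot be read as particular to the members. The first 2 members by correlation were not called, with log2 fold changes of -0.48 ± 0.30 (adjusted p = 0.294) for ENSBTAG00000012423 and 0.05 ± 0.17 (adjusted p = 0.860) for ENSBTAG00000016977.

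In HD against LD bulls none of the 150 members was called by edgeR, and 0% of all features were lower. Their median log2 fold change was -0.27, against 0.012 over all features, and 139 were below 0, where 48.6% of all features were. With a bull left out the median ran from -0.44 (without HD bull 14) to -0.16 (without HD bull 8). At an unadjusted p under 0.05, 5 members (3.3%) were lower in HD against 6.65% of all features, but this count was not stable. It was 49 without HD bull 14 (10.2% of all features), 34 without HD bull 12 (10.5%), 34 with library size only as the scale (17.5%) and 30 with the share outside exons as a covariate (7.22%), and 1 in the 6 fits without HD bull 7, 8, 10 or 13 or LD bull 1 or 3 (4.28% to 6.43%). DESeq2 with its beta prior also called none, where 1.02% of the features with an adjusted p were lower. The member with the smallest p, ranked 124, had a log2 fold change of -0.37 ± 0.15 (adjusted p = 0.217). In MD against LD bulls none was called, with 0% of features higher. The median of the members was 0.13, against 0.003 over all features, or 0.03 without MD bull 6 and 0.22 without LD bull 1. None had an unadjusted p under 0.05, against 0.546% of all features higher in MD, and DESeq2 called none. The 3 comparisons share their bulls, so their values are not independent of each other.

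**Figure D3:**
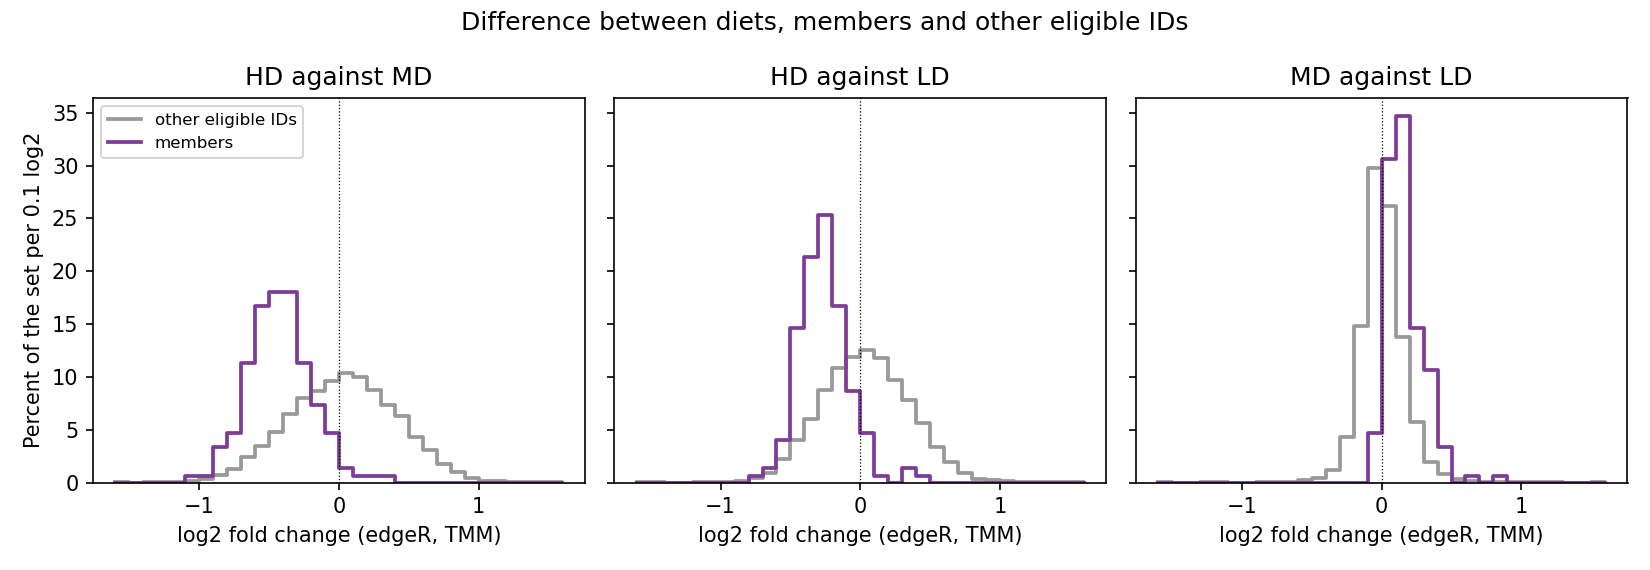
Distribution of the edgeR log2 fold changes (horizontal axis, TMM scaling; values past the ends are drawn in the last class) in the 3 diet comparisons, as percent of the set in each class of 0.1, for the 150 members and for the other IDs that could be ranked. The members centre at -0.45 in HD against MD, at -0.27 in HD against LD and at 0.13 in MD against LD.

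The count of called members in HD against MD rested on single bulls. It ran from 0 to 88 when each bull was left out in turn. Without HD bull 14, 88 members were lower in HD, where 11.5% of all features were, and the median log2 fold change was -0.63 with all 150 below 0. Without HD bull 12 the count was 60 (12.1% of all features lower). It was 36 without MD bull 18 (10.1%), 31 without MD bull 5 (8.47%), 20 without HD bull 11 (8.47%) and 19 without HD bull 9 (7.65%), so the calls over all features moved as well. It was 3 without HD bull 10, 6 without LD bull 3, 20 or 22, and 7 without LD bull 21 or 23. In these 6 fits 2.0% to 4.7% of the members and 4.12% to 4.50% of all features were lower, so the members' share was near or below that of all features. In 8 fits, each without one of HD bulls 7, 8 and 13 or MD bulls 4, 6, 16, 17 and 19, no member was called, and in each of these fits only 1 feature of all those tested was called. The median log2 fold change kept its sign in all 24 fits and ran from -0.63 to -0.33, the latter without MD bull 6.

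**Figure D4:**
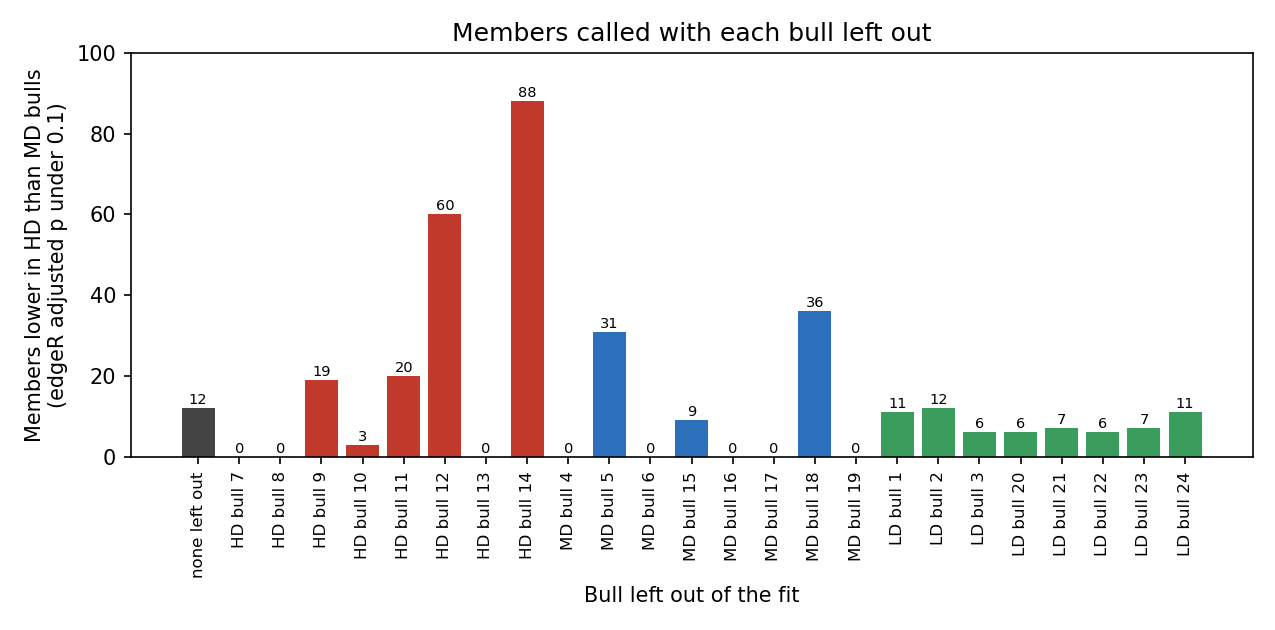
Number of the 150 members lower in HD than in MD bulls at an edgeR adjusted p under 0.1 (vertical axis) with no bull left out and with each of the 24 bulls left out in turn (horizontal axis, coloured by diet). The count was 12 with every bull, 88 without HD bull 14, 60 without HD bull 12 and 0 in 8 of the fits.

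The scaling and the share itself also moved the count. With library size alone as the scale, 63 members were lower in HD, where 20% of all features were; on this scale the features tested had a median log2 fold change of -0.21. The members' median on that scale was -0.66. DESeq2 with the beta prior called 22 members lower, where 7.63% of the features with an adjusted p were lower. The members were chosen for following the share outside exons, so a fit with this share as a covariate is no separate test of them. It called no member, but it also called only 1 of the 15005 features and 0% of them lower. In this fit 11 members (7.3%) were lower at an unadjusted p under 0.05, against 5.5% of all features, and 4 (2.7%) were higher, against 10.3%. In it 101 members were below 0 and 49 above, and the median log2 fold change of the members was -0.11 in HD against MD, -0.17 in HD against LD and -0.07 in MD against LD, the last with its sign changed. With the share of low quality alignments as a covariate no feature at all was called, the members included (13 members and 6.7% of all features were lower at an unadjusted p under 0.05), and the members' median in HD against MD was -0.36.

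The 150 IDs at the opposite end of the correlation showed the other direction in the same comparison, with 90 higher in HD than in MD bulls, where 8.68% of all features were, and a median log2 fold change of 0.59. These IDs were chosen for falling with the share outside exons. Its mean was 12.3% in HD and 14.5% in MD bulls, so this direction is no separate result. With library size only as the scale, 36 of these IDs were higher, where 542 of 15005 features were, and their median was 0.37. The count of IDs higher ran from 0 to 137 with a bull left out, and was 0 in the same 8 fits. It was 0 with either covariate, and the share outside exons as a covariate brought the median to 0.22.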

How the data were processed

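Raw counts of reads per exon bin were deposited by the authors, 1 table per bull, with 4 rows for reads outside exons, ambiguous, of low quality or not aligned (the last 0 in every library). Per the labels, reads were aligned to UMD3.1 with TopHat2 2.0.10 and Bowtie 1.1.2. The study's methods name featureCounts for counts per gene. The deposited tables hold counts per exon bin, and their names and layout point to DEXSeq, a tool for exon usage. The program and version that wrote them are not given in the sources used here. A read that touches several bins may be counted in each, so a gene's sum can exceed its reads. Bins were summed per gene. The rows outside exons, of low quality and ambiguous stayed out of library sizes (9.54% to 21.4%, 6.63% to 21% and 0.165% to 0.347% of rows).

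Members and lists were chosen with earlier results of these data known. Equal correlations were ranked by ID. Diets were compared in 1 edgeR 4.0.16 fit of 24 libraries (R 4.3.3, TMM, filterByExpr, quasi-likelihood test, Benjamini-Hochberg over all features), and with DESeq2 1.42.0. The members named by ID were the first 2 by correlation and the 2 called with the smallest p; the others go by rank, with values for those at the ends of a range. Slopes are least squares on log2(CPM + 1) with a pseudocount of 1, in Python 3.11.15. The rule and the fit were tested on simulated data. Alternatives were other scalings, filters, covariates, 1 bin per gene and leaving out each bull.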

Additional observations from a re-analysis of the deposited data

Results flagged for a closer look

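Among 33 sets of 8 bulls checked for a single value far from the rest (11 measures in 3 diets), 2 were found, where chance gives about 1 in 20. The level of ENSBTAG00000019730 in MD bull 6 was 99.1 CPM, and the nearest MD bull had 34.9 CPM. The total on genes of LD bull 3 was 19470903 counts, and the nearest LD bull had 15065648. The summed level of the members was not set apart in any diet by this measure.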

How the results depend on the processing

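In HD against MD, the number of members lower was 12, and 0 at an adjusted p under 0.05, with no filter on low counts, with the 2 diets alone, or with the share outside exons or of low quality alignments as a covariate. In each of these at most 1 feature was called in all. It was 63 with library size only and 22 with DESeq2 by either setting. It ran from 0 to 88 with a bull left out. It was 9 with DESeq2's size factors (5.08% of all features lower), 13 with a mean of at least 10 counts (5.66%), 8 with 1 bin per gene (3.26%), 11 of the 137 IDs above the tied correlation and 16 of all 183 at or above it (5.42%). No setting run called a member in the other comparisons or higher in HD than MD. Other features were called in HD against LD in some settings. Without HD bull 12 these were 716 of 15075, with 1.70% of all features lower, and with DESeq2 and its beta prior 550 of 8202, with 1.02% lower.

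Of the 150 members, 94 were chosen again with CPM on TMM library size, 90 with ranks over all bulls, 84 with the mean Pearson correlation, 59 with 1 bin per gene, and 65, 97 and 85 from the bulls of 2 diets (MD and LD, HD and LD, HD and MD). With the share of low quality alignments in place of the share outside exons, 0 were chosen again. The ranks of these shares correlated at -0.524 within diets, so a choice of IDs that rise with low quality left little room for the members. With a bull left out 83 (without HD bull 14) to 145 were chosen again, and 69 in every such choice. The median slope ran from 0.19 to 0.25 with a bull left out.

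The log2 fold change of ENSBTAG00000012423 changed sign with the share outside exons as a covariate (0.016 in HD against MD and -0.16 in MD against LD). That of ENSBTAG00000016977, near 0, did so with library size only (-0.17 in HD against MD, -0.10 in HD against LD), with that covariate (-0.089 in MD against LD), and with a bull left out: in HD against MD from -0.12 to 0.10, in HD against LD from -0.079 to 0.17, and in MD against LD from -0.012 to 0.12. The cause was not tested. No paired analysis was possible because the bulls' numbers are not shared between diets. Genes with a mean count under 50 were not ranked, so rarer genes are not described.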
